A study of Mus musculus with 11 samples.

Results

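The transcription factor genes described here are active in resting, naive T cells: Lef1, Sox4, Klf2, Klf3, Foxp1, Bach2, Satb1 and Id3. They were taken by gene symbol from the deposited array table, where they made up 8 of 17097 measured genes and 27 of 45037 probe sets. Naive T cells circulate between blood and lymphoid organs in a quiescent state, and a set of transcription factors keeps them there. Klf2, a Krüppel-like zinc finger protein, switches on the receptors for this traffic, Foxp1 and Bach2 hold back activation and effector genes, and Lef1 is an HMG-box factor of the Wnt pathway that acts beside its relative Tcf1. When a naive cell meets antigen and becomes an effector cell, most of these genes are known to be turned down, and regulatory T cells are known to need Bach2, Satb1 and Foxp1 during their development or upkeep.

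All cells came from male NOD mice, 16 weeks old, a strain prone to autoimmune disease, with lymphocyte infiltrates in the lacrimal gland (LG). From the gland, 3 sorted subsets of live CD4+ TCRβ+ T cells were profiled on 3 arrays each. LG_eTreg (effector regulatory) and LG_eTconv (effector conventional) cells were sorted as PD1 high ICOS high CD73 low CD200 low, a gate that the design text words identically for both, and LG_naive cells were sorted as PD1- ICOS-. From the spleen, total CD4 cells (Spl_CD4) and total CD8 cells (Spl_CD8) gave 1 array each, which allows no test. The labels do not say whether the replicates were separate mice or pools, so the p-values speak only of variation among these arrays, part of which may be technical. LG_naive is named by the absence of PD1 and ICOS alone, so it may hold cells other than naive ones.

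All signals are RMA values taken as log2, in which 1 unit is a factor of 2, a base inferred from the method. Each factor is described by its brightest probe set over the gland arrays unless another is named. Signals of different probe sets differ with probe design, so levels are compared between samples and never between genes. The background limit of each array was set at its highest nonspecific control, which lay between 0.945 and 1.70. Array medians over all genes ran from 2.26 to 2.39. The 18S ribosomal control was highest on LG_eTreg 3 at 6.69 and LG_naive 1 at 6.63, and the lowest array had 4.34. Actin control signal at the 3′ end exceeded that at the 5′ end by 3.35 on LG_eTconv 1, the widest gap, and by 1.53 on the array of the narrowest. Foxp3, the factor that defines regulatory T cells, was at 8.21, 8.13 and 8.21 in LG_eTreg, at 4.26, 4.85 and 3.61 in LG_eTconv and at 2.86, 4.04 and 4.95 in LG_naive. The 3 LG_eTreg arrays thus stood above all others in the gene that their label calls for.

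All 8 factors were lower in LG_eTreg than in LG_naive, and 5 of 8 were lower in LG_eTconv: Lef1, Sox4, Klf2, Klf3 and Satb1. These calls used limma with Benjamini-Hochberg adjustment at 0.05 over all 17097 genes, of which 5.47% were called lower in LG_eTreg and 7.02% in LG_eTconv. The median log2 difference of the 8 factors was −2.67 in LG_eTreg and −2.71 in LG_eTconv (−2.67 and −2.42 with genes below background taken at their bounds), and over all genes it was −0.02 and −0.03. Between the effector subsets themselves, Bach2 was lower in LG_eTreg (1 of 8, where 2.76% of all genes were lower) and Satb1 was higher (1 of 8, where 2.94% were higher). The remaining 6 did not pass that test. The arrays of LG_eTreg and LG_naive were fully separated in 8 of 8 factors, where 27.1% of all genes were. LG_eTconv and LG_naive were separated in 6 of 8, where 31.1% were, and LG_eTreg and LG_eTconv in 4 of 8, where 21.5% were. In RNA from bulk samples, fewer cells of a type and less RNA per cell cannot be told apart.

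**Figure D1:**
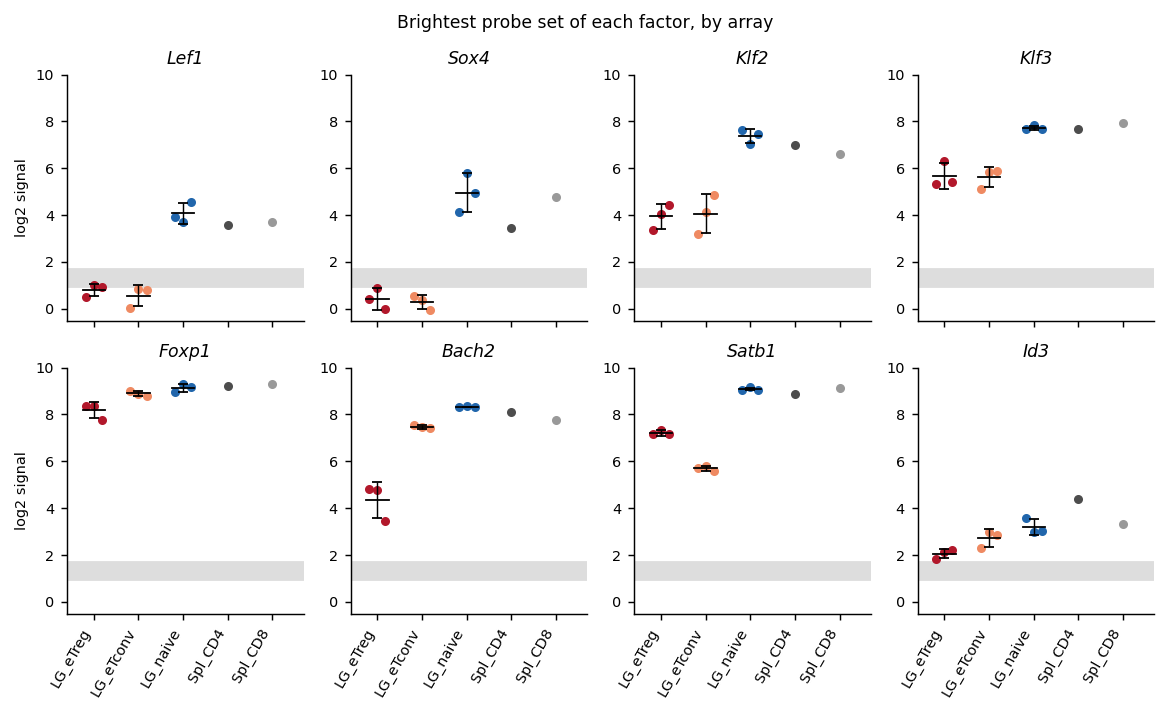
Log2 signal of the brightest probe set of each factor on every array, with the mean (wide line) and SD (error bars) of each 3-array group and the range of the background limits in grey. The effector subsets overlap in Lef1, Sox4, Klf2 and Klf3, Bach2 is lowest in LG_eTreg and Satb1 is lowest in LG_eTconv.

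The HMG-box factors Lef1 and Sox4 were at or near the background limit in both effector subsets. Lef1 signal was 0.50, 1.0 and 0.91 in LG_eTreg, 0.03, 0.86 and 0.82 in LG_eTconv, and 3.93, 3.72 and 4.58 in LG_naive. Only 1 of 6 effector arrays, LG_eTreg 2, lay above its background limit, while the spleen arrays, with 3.56 in Spl_CD4 and 3.69 in Spl_CD8, stood close to the gland's LG_naive cells. Against LG_naive the fitted log2 difference was −3.27 in LG_eTreg (SE 0.29, limma adjusted p = 0.000162), of which 2 of 3 arrays lay below background. With signals below the highest background limit set to that limit it was −2.38 (adjusted p = 0.00102). In LG_eTconv, where no array was above background, Lef1 was at least 6.67-fold lower (adjusted p = 9.25e-05). The effector subsets differed by 0.24, with a 95% interval from −0.43 to 0.90 (adjusted p = 0.803), and a difference below the background limit was not detectable. Lef1 had a single probe set.

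Sox4, which is known to restrain type 2 helper differentiation in mouse T cells, was at 0.40, 0.89 and −0.02 in LG_eTreg, 0.54, 0.37 and −0.05 in LG_eTconv, and 4.14, 5.79 and 4.94 in LG_naive. All 6 effector arrays lay below the background limit and all 3 LG_naive arrays far above it. Sox4 was therefore at least 13.4-fold lower in LG_eTreg (limma adjusted p = 0.000163) and at least 12.3-fold lower in LG_eTconv (adjusted p = 0.000114). Spl_CD4 had 3.47 and Spl_CD8 had 4.79. The mean of the LG_naive arrays, 4.96 ± 0.82 (SD, n = 3), was 1.49 above Spl_CD4, and all 3 arrays were above it. Of its 5 probe sets, 2 were called lower in both effector subsets. The second of these read 0.33, 0.54 and 0.23 in LG_eTreg, 0.64, 0.92 and 0.35 in LG_eTconv, and 4.30, 2.99 and 2.66 in LG_naive, which made Sox4 at least 4.27-fold and at least 3.93-fold lower. On that probe set the spleen arrays, at 1.16 and 0.32, did not share the LG_naive level. Both informative probe sets of Sox4 thus had Spl_CD4 below all 3 LG_naive arrays, but they disagree about Spl_CD8. The other 3 probe sets lay near or below the background limits in every gland group with differences from LG_naive between −0.38 and 0.03, so they carry little information.

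Among the Krüppel-like factors, Klf2 and Klf3 were lower in both effector subsets. Klf2, the activator of the traffic receptors, was at 3.37, 4.04 and 4.45 in LG_eTreg, 3.21, 4.13 and 4.86 in LG_eTconv, and 7.64, 7.06 and 7.47 in LG_naive. The effector subsets overlapped fully with each other and neither reached LG_naive. Spl_CD4 at 7.0 and Spl_CD8 at 6.62 lay just below the gland's LG_naive arrays. Klf2 was 10.8-fold lower in LG_eTreg (log2 difference −3.44, SE 0.42, limma adjusted p = 0.00101) and 10-fold lower in LG_eTconv (−3.33, SE 0.42, adjusted p = 0.00103). The effector subsets differed by −0.11, with a 95% interval from −1.08 to 0.85 that leaves room for a 2-fold difference.

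Klf3, a Krüppel-like repressor that binds the same DNA element as other family members, was at 5.32, 6.29 and 5.39 in LG_eTreg, 5.14, 5.85 and 5.89 in LG_eTconv, and 7.69, 7.83 and 7.66 in LG_naive. The LG_naive arrays agreed closely with each other and, on this probe set, with Spl_CD4 (7.69) and Spl_CD8 (7.95), and all effector arrays were lower. The log2 difference was −2.06 in LG_eTreg (SE 0.29, limma adjusted p = 0.00208) and −2.10 in LG_eTconv (adjusted p = 0.00158). All 6 probe sets of Klf3 were called lower in both subsets. The 5 above background had log2 differences from −3.64 to −2.06 in LG_eTreg and from −2.36 to −1.38 in LG_eTconv. The dimmest lay below background in both effector subsets and was at least 2.63-fold lower in LG_eTreg and at least 2.42-fold lower in LG_eTconv. Between the subsets the brightest probe set differed by 0.04 (adjusted p = 0.973), but the second brightest did not give the same answer. It read 2.76, 2.95 and 2.24 in LG_eTreg, 3.98, 4.02 and 3.96 in LG_eTconv, and 6.47, 5.99 and 6.42 in LG_naive. Here LG_eTreg was lower than LG_eTconv (difference −1.33, adjusted p = 0.00938 over all probe sets), and 3 of the other probe sets above background had the same direction without passing the test. The spleen arrays read 4.61 in Spl_CD4 and 4.99 in Spl_CD8 on this probe set, below all 3 LG_naive arrays.

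The promoters of Klf2 and Klf3, whose signals moved together across the 11 arrays (r = 0.948, a description, since arrays of 1 group share their cells), are shown because Krüppel-like factors bind CACCC elements. Each run is the 250 bases before the first annotated start, from RefSeq on GRCm38.p6, written 5′ to 3′ on the gene's strand, with CACCC and its reverse complement GGGTG in capitals.
Klf2, chr8:72318812-72319061, + strand: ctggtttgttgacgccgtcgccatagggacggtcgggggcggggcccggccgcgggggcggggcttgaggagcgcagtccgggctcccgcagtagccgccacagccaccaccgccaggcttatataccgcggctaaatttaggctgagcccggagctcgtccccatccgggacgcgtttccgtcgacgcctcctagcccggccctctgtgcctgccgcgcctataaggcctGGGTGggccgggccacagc
Klf3, chr5:64803271-64803520, + strand: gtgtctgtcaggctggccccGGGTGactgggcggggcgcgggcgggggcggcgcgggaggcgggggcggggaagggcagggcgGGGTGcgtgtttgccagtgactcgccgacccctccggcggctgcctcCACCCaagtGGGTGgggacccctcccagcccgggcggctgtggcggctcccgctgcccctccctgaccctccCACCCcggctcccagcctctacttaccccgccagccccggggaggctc
The Klf2 window held 1 match and the Klf3 window held 5, while 51.3% of 27025 mouse promoters of this length held at least 1. Of the 8 factors, 6 had a match, with 3 in Lef1, 3 in Foxp1, 2 in Satb1 and 2 in Id3. A match is a run of letters and does not show that a factor binds there.

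Foxp1, a forkhead protein that holds naive T cells in quiescence, changed least of the 8 in both comparisons on its brightest probe set. It was at 8.38, 8.38 and 7.78 in LG_eTreg, 9.02, 8.89 and 8.79 in LG_eTconv, and 8.97, 9.30 and 9.16 in LG_naive. LG_eTreg lay below every other array, while LG_eTconv overlapped with LG_naive, and Spl_CD4 (9.19) and Spl_CD8 (9.29) lay within the LG_naive range. Foxp1 was 1.95-fold lower in LG_eTreg (log2 difference −0.97, SE 0.18, limma adjusted p = 0.00911). In LG_eTconv the difference was −0.24, with a 95% interval from −0.65 to 0.17 (adjusted p = 0.482). The direct difference between the effector subsets was −0.72 and missed the threshold (adjusted p = 0.0577). It passed under 4 of 19 other settings (adjusted p = 0.0234 to 0.0494), and over all 19 the adjusted p ran from 0.0234 to 0.175.

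The 7 probe sets of Foxp1 did not agree on LG_eTconv. In LG_eTreg 6 of 7 were called lower, with differences from −3.42 to −0.97. In LG_eTconv 4 of 7 were called lower, among them the dimmest, at 2.30, 2.53 and 2.66 in LG_eTconv, against 5.56, 4.34 and 4.98 in LG_naive (difference −2.47, limma adjusted p = 0.00115). LG_eTreg was called lower than LG_eTconv on 3 of 7 probe sets (−1.07 to −0.86), and the other 4 had the same direction. With the mean of all 7 probe sets, Foxp1 was called lower in LG_eTconv as well (−1.15, adjusted p = 0.00265). The single probe set that was called in no comparison had 1 array apart: LG_eTconv 1, the array of the widest actin gap, read 1.17, against 4.40 and 4.28 on the other LG_eTconv arrays. A part of RNA quality in that value was not tested.

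Of the 8 factors, Bach2 had the largest difference between the effector subsets. Bach2 is a repressor that pairs with small Maf proteins, competes with AP-1 factors at their sites and keeps effector genes such as Prdm1 off. It was at 4.82, 4.79 and 3.44 in LG_eTreg, 7.57, 7.47 and 7.41 in LG_eTconv, and 8.33, 8.34 and 8.32 in LG_naive. The 3 groups were fully separated, with LG_eTconv close below Spl_CD8 (7.75) and Spl_CD4 (8.12) and LG_eTreg far below all of them. Bach2 was 15.8-fold lower in LG_eTreg than in LG_naive (log2 difference −3.98, SE 0.33, limma adjusted p = 0.000105) and 8.77-fold lower in LG_eTreg than in LG_eTconv (−3.13, SE 0.33, adjusted p = 0.00073). Its 2 other probe sets gave −2.55 and −1.99 between the effector subsets, both called (adjusted p = 0.00107 and 0.0318 over all probe sets).

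In LG_eTconv, Bach2 differed from LG_naive by −0.85, which did not pass the test in the fit over all 9 arrays (SE 0.33, 95% interval −1.60 to −0.10, limma adjusted p = 0.144). That SE pools the spread of all 3 gland groups, and the SD was 0.79 in LG_eTreg, 0.08 in LG_eTconv and 0.01 in LG_naive. The missed call therefore does not speak of LG_eTconv and LG_naive alone. By the rule used for this question, a factor was kept by 1 effector subset when it was called lower in the other subset, was not called lower in this one, and differed by test between the 2 subsets. Bach2 in LG_eTconv was the only factor to meet it. Kept does not mean equal to LG_naive: all 3 LG_eTconv arrays were below all 3 LG_naive arrays, and the 2 other probe sets of Bach2 were called lower in LG_eTconv (−1.10 and −1.60, adjusted p = 0.0279 and 0.0396). Without LG_eTreg 3 the same difference was called (adjusted p = 0.000822), as it was in a fit of LG_eTconv and LG_naive alone (0.00249) and with the mean of the 3 probe sets (−1.18, adjusted p = 0.00833). Over the 19 other settings the adjusted p ran from 0.000822 to 0.283, and Bach2 met the rule in 15 of them. The lower level in LG_eTreg than in LG_eTconv was called in all 19.

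Satb1 split the other way. Satb1 is a chromatin organiser of the nucleus that shapes gene loops in thymocytes and T cells. It was at 7.15, 7.35 and 7.15 in LG_eTreg, 5.71, 5.80 and 5.6 in LG_eTconv, and 9.06, 9.16 and 9.05 in LG_naive. The 3 groups were fully separated and tight, and Spl_CD4 (8.87) and Spl_CD8 (9.14) stood with LG_naive. Satb1 was 3.66-fold lower in LG_eTreg (log2 difference −1.87, SE 0.10, limma adjusted p = 1.37e-05) and 10.4-fold lower in LG_eTconv (−3.39, SE 0.10, adjusted p = 7.19e-07). LG_eTreg therefore held 2.86-fold more signal than LG_eTconv (1.51, 95% interval 1.28 to 1.75, adjusted p = 7.38e-05), but since it was called lower than LG_naive in both subsets, it does not count as kept by either.

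All 3 probe sets of Satb1 were called lower in both effector subsets, and the 2 dimmer ones had larger differences than the brightest. The second brightest was 20.3-fold lower in LG_eTreg and 27-fold lower in LG_eTconv. The dimmest was 18.3-fold and 72.4-fold lower, with 2 of 3 LG_eTconv arrays above background. The size of the fall thus depends on the probe set in both subsets. The dimmest of them read 3.74, 3.19 and 3.94 in LG_eTreg, 1.21, 1.31 and 2.40 in LG_eTconv, and 7.86, 7.76 and 7.84 in LG_naive. It placed the subsets in the same order as the brightest, with LG_eTreg higher than LG_eTconv by 1.98 (limma adjusted p = 0.0141 over all probe sets). The remaining one had LG_eTreg at 3.23, 3.54 and 2.59 and LG_eTconv at 2.69, 2.84 and 2.62, which overlapped and differed by 0.41 (adjusted p = 0.499). Across the 11 arrays Satb1 and Bach2 correlated at r = 0.348, the lowest value of any pair of the 8 factors and a description of arrays that share groups.

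The promoters of Bach2 and Satb1 are shown because these are the 2 factors that were called between the effector subsets, in opposite directions. They are printed as for Klf2 and Klf3, with CACCC or GGGTG in capitals.
Bach2, chr4:32417185-32417434, + strand: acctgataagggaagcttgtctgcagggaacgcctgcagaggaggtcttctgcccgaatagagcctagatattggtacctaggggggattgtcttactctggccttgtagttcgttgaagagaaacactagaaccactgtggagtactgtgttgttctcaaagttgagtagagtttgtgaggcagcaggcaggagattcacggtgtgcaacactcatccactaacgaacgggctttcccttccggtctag
Satb1, chr17:51833291-51833540, - strand: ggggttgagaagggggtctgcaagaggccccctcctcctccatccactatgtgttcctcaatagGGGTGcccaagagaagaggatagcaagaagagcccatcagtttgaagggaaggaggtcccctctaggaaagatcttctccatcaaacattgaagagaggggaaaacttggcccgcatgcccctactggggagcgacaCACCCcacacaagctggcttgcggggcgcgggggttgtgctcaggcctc
The Bach2 window held no match and the Satb1 window held 2. The palindromic element of Bach2 and small Maf proteins, searched as TGANTCA, was in none of the 8 windows and in 6.87% of all 27025. The Lef1 and Tcf element CTTTG, with its reverse complement CAAAG, was in 3 of the 8 windows (Lef1, Foxp1 and Bach2) and in 48.8% of all. No match says only that these letters are not in this window.

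Id3 encodes an inhibitor that binds E proteins and keeps them from DNA. It was at 1.85, 2.12 and 2.20 in LG_eTreg, 2.30, 3.0 and 2.87 in LG_eTconv, and 3.59, 2.97 and 3.04 in LG_naive. All gland arrays were above their background limits, though not by far, and LG_eTreg lay below both other gland groups, which overlapped. Id3 was 2.21-fold lower in LG_eTreg (log2 difference −1.14, SE 0.23, limma adjusted p = 0.0131). In LG_eTconv the difference was −0.48, with a 95% interval from −1.0 to 0.05 (adjusted p = 0.249), and between the subsets it was −0.67 (adjusted p = 0.174). Without LG_eTreg 3, LG_eTconv 1 and LG_naive 1 together, a set chosen after seeing the data, this last difference was called (−0.95, adjusted p = 0.0311). Spl_CD4 at 4.41 was above all 3 LG_naive arrays, and Spl_CD8 stood at 3.32.

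**Figure D2:**
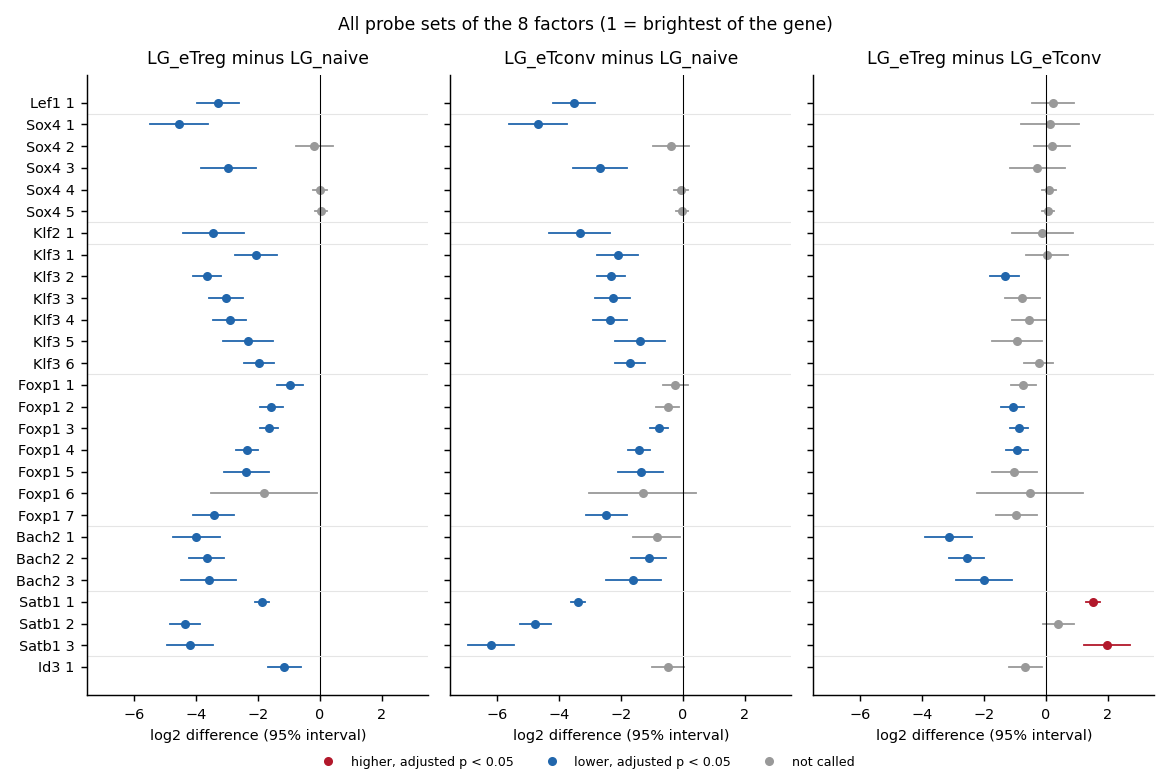
Log2 difference and its 95% interval for each of the 27 probe sets in the 3 comparisons, with each gene's probe sets numbered by brightness. In LG_eTreg minus LG_naive 23 are called lower, and in LG_eTreg minus LG_eTconv the 3 of Bach2 lie left of zero and 2 of the 3 of Satb1 are called to the right of it. Probe sets below background are drawn at their fitted differences.

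Counted over probe sets, 23 of 27 were called lower in LG_eTreg than in LG_naive, where 3.51% of all 45037 probe sets were. In LG_eTconv 19 of 27 were called lower, where 4.57% of all were. No probe set of the 8 factors was called higher than LG_naive in either subset, where 4.09% and 4.55% of all were. Between LG_eTreg and LG_eTconv 7 of 27 were called lower, 3 of Bach2, 3 of Foxp1 and 1 of Klf3, where 1.71% of all were, and 2 were called higher, both of Satb1, where 1.75% of all were. The probe sets of a gene share its transcripts and are not replicates. The comparisons share LG_naive or effector arrays, so their counts are not independent of each other.

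Between tissues, the brightest probe sets of most factors had LG_naive near the spleen. With 1 array of Spl_CD4, a factor was counted as different when the mean of LG_naive was at least 2-fold away and all 3 arrays lay on the same side. This held for 2 of 8, Sox4 (LG_naive minus Spl_CD4 1.49) and Id3 (−1.21), where 9.24% of all genes met it, and there is no replicate check. For the other 6 the difference from Spl_CD4 lay between −0.05 (Foxp1) and 0.52 (Lef1). On the brightest probe sets, all effector arrays of the gland were below Spl_CD4 in all 8 factors. This did not hold on every dimmer one. For example, a probe set of Klf3 read 3.28 and 3.23 on LG_eTconv 1 and LG_eTconv 3, above Spl_CD4 at 2.64. A probe set of Foxp1 read 4.40 and 4.28 on LG_eTconv 2 and LG_eTconv 3, above Spl_CD4 at 3.89. For LG_naive against Spl_CD4, other probe sets did not always give the same answer either: 6 of 27 met the rule, where 8.73% of all probe sets did. Among them were 2 of Klf3, higher in LG_naive than in Spl_CD4 by 1.69 and 1.65, and the dimmest of Foxp1, higher by 1.96. Spl_CD4 minus Spl_CD8 was 1.09 in Id3 and −1.32 in Sox4, and in the other 6 it lay between −0.27 and 0.37. Total spleen CD4 cells were not sorted by PD1 or ICOS, so they hold naive and antigen-experienced cells together. The spleen arrays also had more B cell marker signal. The 5 measured B cell markers had a summed log2 signal of 23.8 in Spl_CD4 and 25.8 in Spl_CD8, against 11.4 to 13.6 in LG_naive. A part of B cell RNA in the spleen levels of the 8 factors was not tested.

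Some of the circulation and survival genes linked to Klf2 and Foxo1 were lower as well. Of 5 measured genes 3 were lower in LG_eTreg (S1pr1, Il6ra and Bcl2) and 3 in LG_eTconv (S1pr1, S1pr4 and Itgb7), with none higher in either. Over all genes 5.47% and 7.02% were lower, and 6.2% and 6.45% were higher. The median log2 difference of the 5 genes was −1.58 in LG_eTreg and −1.19 in LG_eTconv. S1pr1, the receptor that lets T cells leave tissue and a direct Klf2 target, was at 3.31, 2.78 and 3.39 in LG_eTreg, 4.04, 3.95 and 4.20 in LG_eTconv, and 6.37, 6.11 and 6.38 in LG_naive. It differed from LG_naive by −3.12 (limma adjusted p = 1.37e-05) and −2.22 (adjusted p = 6.75e-05), and the effector subsets differed by −0.90 (adjusted p = 0.0189). Bcl2, which protects resting cells from death, was at 5.34, 3.67 and 3.88 in LG_eTreg, 7.70, 7.53 and 7.45 in LG_eTconv, and 7.02, 7.11 and 7.05 in LG_naive. Bcl2 was thus lower in LG_eTreg than in LG_eTconv (−3.27, adjusted p = 0.00134). S1pr4 had the opposite order, higher in LG_eTreg than in LG_eTconv by 1.19 (adjusted p = 0.0011). Whether any of these levels follow from Klf2 was not tested.

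Genes tied to Bach2, its Maf partners and genes it is known to repress, moved in both directions. Of 9 measured genes 4 were higher and 2 lower in LG_eTreg than in LG_naive, 3 were higher and 2 lower in LG_eTconv, and 3 were higher in LG_eTreg than in LG_eTconv. Over all genes 6.2% were higher and 5.47% lower in the first comparison, 6.45% and 7.02% in the second, and 2.94% were higher in the third. The medians of the 9 genes were 1.69, 0.55 and 0.45. Prdm1, which encodes Blimp-1 and is a known target of Bach2, was at 8.04, 8.13 and 8.03 in LG_eTreg, 4.69, 5.03 and 3.92 in LG_eTconv, and 3.95, 4.36 and 4.54 in LG_naive. It was higher in LG_eTreg by 3.78 than in LG_naive (SE 0.27, limma adjusted p = 5.4e-05) and by 3.52 than in LG_eTconv (adjusted p = 0.000129). Il2ra, the high-affinity interleukin 2 receptor chain, was at 7.01, 7.28 and 7.17 in LG_eTreg, 5.34, 5.12 and 4.91 in LG_eTconv, and 4.34, 4.79 and 4.6 in LG_naive. It was higher in LG_eTreg by 2.58 than in LG_naive and by 2.03 than in LG_eTconv. Ccr8, a chemokine receptor of effector regulatory cells, was below background in LG_naive and at least 34.5-fold higher in LG_eTreg and at least 25.3-fold higher in LG_eTconv. Bach1, the closest relative of Bach2, was lower in LG_eTconv than in LG_naive (−1.32, adjusted p = 0.000322) and higher in LG_eTreg than in LG_eTconv by 1.07. The small Maf partners differed in direction. Mafg was higher in both subsets, by 2.06 and 2.03, Mafk was lower in both (−1.07 and −1.05, adjusted p = 0.00334 and 0.00307), and Maff was lower in LG_eTreg (−1.08, adjusted p = 0.0131). Gata3, the factor of type 2 helper cells, was higher in LG_eTconv by 1.86. Whether any of these levels follow from Bach2 was not tested.

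**Figure D3:**
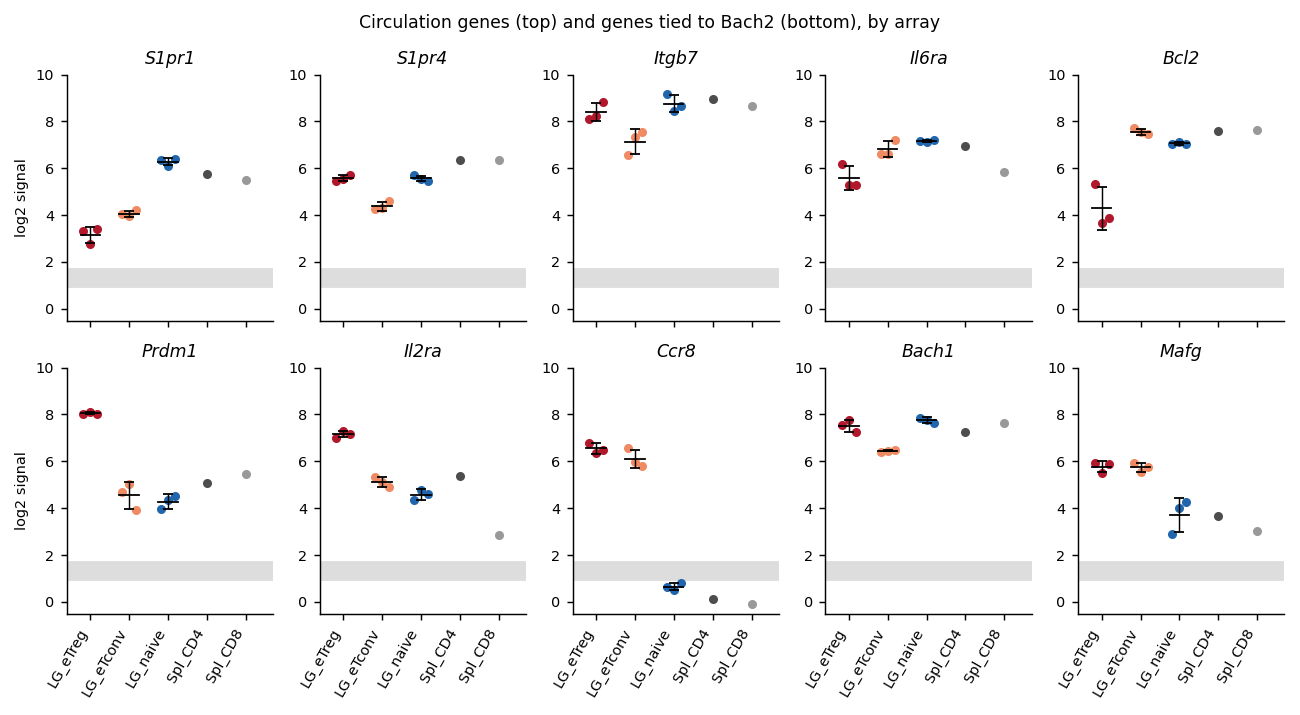
Log2 signal on every array of 5 circulation genes (top) and of 5 genes tied to Bach2 (bottom), with group means, SD bars and the background limits in grey as in the plot of the 8 factors. Prdm1 and Il2ra are highest on the 3 LG_eTreg arrays, where Bach2 is lowest, and Bcl2 is lowest there too. A link of these genes to Bach2 was not tested.

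Relatives of the factors were called in both directions. Of 11 other Klf genes 1 was lower and 2 were higher in LG_eTreg than in LG_naive, where 5.47% and 6.2% of all genes were, and likewise 1 and 2 in LG_eTconv, where 7.02% and 6.45% were. Their median log2 differences were −0.17 and −0.26. Klf12, a repressor of the family, was at 5.15, 5.53 and 4.6 in LG_eTreg, 4.16, 4.65 and 4.37 in LG_eTconv, and 1.34, 1.90 and 1.5 in LG_naive, where 2 of 3 arrays were above background. It was higher by 3.52 and 2.81 (limma adjusted p = 5.61e-05 and 0.000144), a change in the direction opposite to Klf2 and Klf3. Klf4, a factor that slows cell division, was higher in LG_eTconv than in LG_naive by 1.09 (adjusted p = 0.0277) and lower in LG_eTreg than in LG_eTconv (−1.35, adjusted p = 0.0205). Klf13 was lower in LG_eTconv (−0.74, adjusted p = 0.00757). Klf10, which is induced by TGF-β, was higher in LG_eTreg than in LG_naive by 1.0 (adjusted p = 0.00122) and than in LG_eTconv by 0.56 (adjusted p = 0.0414). Klf15, dim everywhere, was at least 1.36-fold lower in LG_eTreg than in LG_naive.

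Among 16 other regulators of resting lymphocytes, 1 was higher and 1 lower in LG_eTreg than in LG_naive, and 1 higher and 2 lower in LG_eTconv. Over all genes 6.2% were higher and 5.47% lower in LG_eTreg, and 6.45% and 7.02% in LG_eTconv. The counts of 1 of 16 are near these shares, which also stand beside the other lists of this paragraph. Gfi1, a zinc finger repressor, was higher by 2.85 and 2.20. Ikzf1, which encodes Ikaros, was lower in LG_eTreg (−0.52), and Tob1, an antiproliferative gene of resting T cells, was lower in LG_eTconv (−1.17). Foxp3 was the gene of the Foxp and Foxo list that changed in LG_eTreg, and Foxp4 was higher in LG_eTconv by 1.24 (limma adjusted p = 0.0242). Among E proteins and their inhibitors, Id2, the other inhibitor common in T cells, was higher in LG_eTreg by 0.95 (adjusted p = 0.00394) and in LG_eTconv by 0.59 (adjusted p = 0.0335), the opposite of Id3 in LG_eTreg. The E protein gene Tcf4 was lower in both (−2.43 and −1.52), but it also defines plasmacytoid dendritic cells. Of 8 genes acting with Lef1, the Groucho corepressor Tle1 was at least 2.33-fold lower in LG_eTreg, and in LG_eTconv Tle1, Tle4 and Tle5 were lower and Tle3 was higher, by 0.48. Tle3 was also lower in LG_eTreg than in LG_eTconv (−0.70, adjusted p = 0.00427). Of 11 other Sox genes, Sox9 alone was called, lower in LG_eTreg (−3.0) and in LG_eTconv (−2.83), and it lay below background in spleen. Markers of gland epithelium were lower too, in 2 of 8 genes in LG_eTreg and 3 of 8 in LG_eTconv. A part of epithelial RNA in the Sox9 signal was not tested. Of 5 chromatin genes, Hdac7, a histone deacetylase, was higher by 1.27 and 1.36, and Ctcf, the loop anchor protein, was lower in LG_eTconv (−0.47). Ctcf was higher in LG_eTreg than in LG_eTconv by 0.54 (adjusted p = 0.0318), and the effector subsets had this order in Satb1 too. Unlike Satb1, Ctcf was not called between LG_eTreg and LG_naive (0.07, adjusted p = 0.822).

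Markers of other cell types moved with the comparison between effector and LG_naive cells. Over all genes 5.47% were lower and 6.2% higher in LG_eTreg, and 7.02% and 6.45% in LG_eTconv. All 7 measured markers of plasmacytoid dendritic cells were lower in both effector subsets: their summed log2 signal ran from 19.4 to 21.1 in LG_eTreg and from 19.7 to 20.6 in LG_eTconv, against 38.4 to 39.5 in LG_naive, and it was 28.9 in Spl_CD4 and 31.1 in Spl_CD8. Of 9 monocyte and macrophage markers 6 were lower in both, with sums of 22.0 to 23.2 and 18.9 to 21.2, against 33.7 to 36.9 in LG_naive, where Csf1r and Itgam lay below background on all arrays. Of 8 dendritic cell markers 5 were lower in both, with Xcr1 below background everywhere. Zbtb46, another of these 8, was higher in LG_eTreg than in LG_naive by 1.27 (limma adjusted p = 0.0341). B cell markers were lower in LG_eTreg in 3 of 5 and in none in LG_eTconv, epithelial markers in 2 and 3 of 8, and fibroblast and endothelial markers in 3 and 2 of 7. Pax5, Krt19, Cldn3 and Pdgfra lay below background in every group. The sort gate required CD4 and TCRβ on every cell. Of the 8 factors, several are also transcribed in such cells, and the part of these markers in the lower signals of the effector subsets was not tested.

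**Figure D4:**
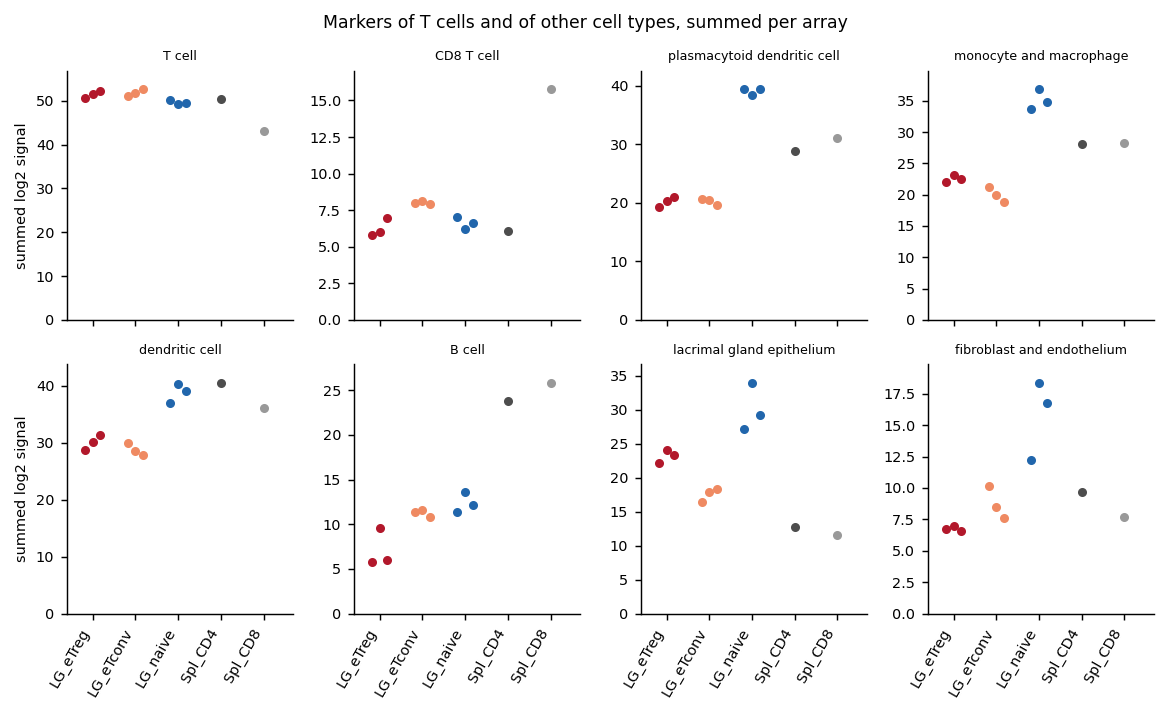
Summed log2 signal per array over the measured genes of each marker list, with 1 point an array. Plasmacytoid dendritic cell markers lie between 19.4 and 21.1 on the 6 effector arrays and between 38.4 and 39.5 on the 3 LG_naive arrays, while T cell markers lie between 49.3 and 52.6 on all gland arrays.

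Between LG_eTreg and LG_eTconv, where Bach2 and Satb1 were called, the marker lists had the following calls. Over all genes 2.76% were lower and 2.94% higher in LG_eTreg. The plasmacytoid dendritic cell list had 2 of 7 genes lower and 1 higher in LG_eTreg, the monocyte and macrophage list 1 of 9 higher, the dendritic cell list none in either direction and the B cell list none. Sums of plasmacytoid dendritic cell markers overlapped between the effector subsets. Epithelial markers had 2 of 8 genes higher in LG_eTreg, with sums of 22.2 to 24.1, against 16.4 to 18.3 in LG_eTconv. Cd8a was lower in LG_eTreg (−1.31), at 5.15, 5.13 and 5.23, against 6.83, 6.47 and 6.16 in LG_eTconv, while Cd8b1 was not called. The endothelial marker Pecam1, which T cells also transcribe, was lower in LG_eTreg (−1.63, limma adjusted p = 0.026). T cell markers summed to 50.6 to 52.3 in LG_eTreg, 51.1 to 52.6 in LG_eTconv and 49.3 to 50.1 in LG_naive. Of these 6 markers, Cd4 was lower in LG_eTreg than in LG_eTconv (−0.55, adjusted p = 0.00845). Against LG_naive, Cd3g was higher by 0.82 in LG_eTreg and 0.51 in LG_eTconv, Cd5 by 0.76 and 0.58, and Cd4 by 0.54 in LG_eTconv.

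For each factor, the genes of the most similar profile were found by Pearson correlation over the 11 arrays among 11159 genes above background on at least 3 of them. These arrays share groups and cells, so the values describe this series. Lef1 and Klf2 were each closest to Atp1b3, a sodium pump subunit gene (r = 0.981 and 0.985), and to each other among the factors (r = 0.977). Sox4 was closest to Cd55b, the testis form of a complement regulator in mouse (r = 0.990), and Klf3 to Commd8 (r = 0.980). Foxp1 was closest to Ehd3, an endosome protein gene (r = 0.989), and Bach2 to Evl, an actin regulator gene (r = 0.974), which was also among the 3 closest to Foxp1 (r = 0.972). Evl averaged 5.38 in LG_eTreg, 7.36 in LG_eTconv and 8.26 in LG_naive, the order that Bach2 had. Satb1 was closest to Pik3r5, a regulatory subunit gene of PI3Kγ (r = 0.995), at 5.10 in LG_eTreg, 3.41 in LG_eTconv and 6.79 in LG_naive, and next to Pag1 and Pxylp1 (r = 0.993 and 0.990). Id3 had the least similar neighbours, led by Osgep (r = 0.924). The remaining neighbours were Cd177 and Rasa3 for Lef1, Cyb561a3 and Pde3b for Sox4, LOC664787 for Klf2, Tmie and Klhl6 for Klf3, Dzip1 for Foxp1, Mfhas1 and Tmem71 for Bach2, and Dhrs4 and Mbnl3 for Id3. Foxp1 and Bach2 correlated at r = 0.956.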

How the data were processed

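RNA was measured on 11 arrays of T cells from lacrimal gland and spleen. Per the labels' protocols, RNA of the sorted cells was purified with the RNAqueous kit and amplified with NuGEN Ovation. They report high RNA integrity for all samples but 1, which they do not tie to a group. Per the submitters' processing notes, the authors used RMA and Partek, whose versions are not given in the sources used here. The deposited values are taken as log2, since RMA gives that scale, though no label states it. Array signals give no counts, so the number of arrays limits the precision.

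The table's 45141 probe sets included 104 controls, which entered no test and served for the background limits and quality values. Among the 45037 remaining, 28898 had 1 gene symbol in the platform annotation, 551 had several and 15588 had none. The probe set of highest mean over the 9 gland arrays stood for each of 17097 genes. A mean per group was fitted over the 9 gland arrays with limma 3.58.1 in R 4.3.3 (empirical Bayes, 6 residual degrees of freedom). Tests were two-sided, adjusted by Benjamini-Hochberg over all genes, or over all probe sets where said, and called under 0.05. The method was tested on simulated data. Where all arrays of a group lay below their background limits, the fold is a bound, "at least", computed against the limit. The 8 factors, the lists of related genes and the markers were chosen with earlier results of these data known. Named genes are all factors, the called genes of each list (up to 4 per comparison with the largest change), and the 3 genes most correlated with each factor. Of 146 list entries, 17 had no probe set under their symbol and were not analysed here.

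No pairing by replicate number entered the fit, because no label ties the numbers to mice. Alternatives varied the filter on dim genes, normalization, background floor, variance trend, arrays in the fit, the replicate block, single arrays and the choice of probe set.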

Additional observations from a re-analysis of the deposited data

How the results depend on the processing

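The 24 differences of the 8 factors in 3 comparisons were recomputed under 19 other settings. Of 456 values, 446 kept their side of the threshold, 10 passed it newly, and none lost its call. No difference that was called, as reported or under the other setting, changed direction. Uncalled ones could: between the effector subsets Klf2 ran from −0.79 to 0.28 and Klf3 from −0.63 to 0.22, and Lef1 and Sox4 also crossed zero. The count of factors kept by 1 effector subset, 1 as reported (Bach2), depended on the setting. It was 2, with Foxp1 added, when dim genes were removed, when quantile normalization was repeated or with a variance trend. It was 0 with the 2 groups alone in the fit and 0 with the mean of all probe sets of a gene. With 1 array left out at a time it ran from 0 to 1, with 0 without LG_eTreg 3. Without LG_eTreg 3, LG_naive 1 and LG_eTconv 1 together, chosen after seeing the data, 1 factor met the rule, but it was Id3 and not Bach2. In each setting where Bach2 did not meet the rule, it was itself called lower in LG_eTconv than in LG_naive. What moved the calls of the factors was not tested further. The count of factors that differed between LG_naive and Spl_CD4 was 1 with the mean of all probe sets, against 2 as reported.

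With 1 array left out at a time, 8 factors were called in LG_eTreg minus LG_naive every time, 5 to 6 in LG_eTconv minus LG_naive and 2 in LG_eTreg minus LG_eTconv. Called probe sets of the factors ran from 22 to 24, 15 to 18 and 6 to 10, and called genes from 1512 to 1845, 1770 to 2414 and 683 to 969. The deviations of same-numbered arrays from their group means correlated over genes at −0.10 to 0.28, with 3 of 9 pairs over 0.1, against 1 of 18 pairs of different number. Between LG_eTreg and LG_eTconv the 3 same-numbered pairs (0.08 to 0.28) exceeded the 6 others (−0.23 to 0.02), but LG_eTreg 3 correlated best with LG_naive 1 (0.19). This is a hint from the data and not from the design, and since 6 of 9 pairs stayed under 0.1 the numbers were not taken to pair the samples. With the replicate block, the counts of factors called were 8, 5 and 2, as without it, and called genes were 1929, 2271 and 906, against 1995, 2303 and 974 without it. Signals of Lef1 and Sox4 in the effector subsets lay at background, which limits what their differences show.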

Other observations

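Among the related genes, a group was high in all gland subsets and low in spleen. Klf4 was at 6.17, 7.10 and 6.60 in LG_eTreg, 7.75, 8.04 and 8.13 in LG_eTconv, and 6.47, 7.16 and 7.02 in LG_naive, while Spl_CD4 had 2.30 and Spl_CD8 had 3.28. Maff, a small Maf gene, was at 5.32, 5.51 and 6.17 in LG_eTreg, 5.96, 6.01 and 6.21 in LG_eTconv, and 6.95, 6.55 and 6.76 in LG_naive, while Spl_CD4 had 1.94 and Spl_CD8 had 2.39. Klf9, a stress-responsive family member, was at 5.68, 6.06 and 5.22 in LG_eTreg, 5.80, 6.20 and 5.76 in LG_eTconv, and 6.49, 6.55 and 5.52 in LG_naive, against 2.80 in Spl_CD4 and 4.34 in Spl_CD8. All 9 gland arrays lay above both spleen arrays in each of these genes, which were chosen after their values were seen. With 1 array of each spleen population there is no test.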
